A study of Mus musculus with 17 samples.

Results

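The genes described here encode the peptide hormones and co-secreted peptides of the pancreatic islet: Ins1, Ins2, Iapp, Ucn3, Gcg, Sst, Ppy, Pyy, Ghrl and Npy. They are 10 of the 78239 gene identifiers in one expected-count table of islet bulk RNA-seq and 10 of the 73212 in another, and were chosen as a family of hormones, not by their values. The first table held 12 libraries of male C57BL6/N littermates, 3 in each of 4 groups. SCD, the standard chow diet, was fed to Pax4 WT and Pax4 HH mice taken at 12 weeks of age, and HFD, a high-fat diet, was fed for 4 weeks to Pax4 WT and Pax4 HH mice taken at 16 weeks, so diet and age changed together. Pax4 HH mice are homozygous for a knock-in R200H substitution in endogenous Pax4, which corresponds to human R192H. The second table held 2 Control and 3 Pax4-BiKO libraries of male mice that were 20 weeks old after 8 weeks of HFD. Pax4-BiKO mice were Pax4 floxed/floxed with a Pdx1-CreERT2 transgene, and Control mice carried the floxed alleles without Cre. Both received tamoxifen, so loss of Pax4 and presence of Cre cannot be told apart, and the Pdx1 promoter that drives this Cre is active in β cells and in some other pancreatic cells. Replicates are biological replicates by their labels, and the sources used here do not say whether a library held the islets of more than 1 animal.

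Islet hormones are made by different endocrine cells. β cells transcribe the insulin genes and release islet amyloid polypeptide and urocortin 3 with insulin, α cells make glucagon, which raises blood glucose, δ cells make somatostatin, which inhibits both, PP cells make pancreatic polypeptide, and ε cells make ghrelin. Mice, unlike most mammals, have a pair of insulin genes, of which Ins1 is thought to have arisen from an Ins2 transcript by retroposition. Pax4 is a homeodomain transcription factor that favours β- and δ-cell fates over the α-cell fate during islet development. In bulk RNA of islets, fewer cells of a type and less RNA per cell cannot be told apart.

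Since both insulin genes are counted from similar reads, their coding sequences are shown first. The first 300 bases of Ins2 and the 294 aligned bases of Ins1 are printed 5′ to 3′ from GENCODE M21 (GRCm38), in lower case, with capitals where the aligned sequences differ or a base has no partner. Ins1 spans 52264297 to 52265476 of chromosome 19 on the plus strand, and its coding sequence spans positions 52264624 to 52264950. Ins2 spans 142678656 to 142743381 of chromosome 7 on the minus strand, and its coding sequence spans positions 142678713 to 142679533.
Ins1: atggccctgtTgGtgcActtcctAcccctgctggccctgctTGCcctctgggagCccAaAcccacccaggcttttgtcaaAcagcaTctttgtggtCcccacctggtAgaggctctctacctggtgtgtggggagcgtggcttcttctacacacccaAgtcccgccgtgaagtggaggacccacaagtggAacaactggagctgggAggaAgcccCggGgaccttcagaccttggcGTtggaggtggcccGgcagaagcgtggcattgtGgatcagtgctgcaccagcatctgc
Ins2: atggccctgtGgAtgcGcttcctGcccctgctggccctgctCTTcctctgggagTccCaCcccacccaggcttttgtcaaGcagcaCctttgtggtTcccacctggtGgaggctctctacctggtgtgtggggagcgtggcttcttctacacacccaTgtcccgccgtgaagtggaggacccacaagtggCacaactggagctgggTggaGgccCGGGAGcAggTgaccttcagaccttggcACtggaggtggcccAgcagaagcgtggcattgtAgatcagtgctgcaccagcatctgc
The coding sequence had 327 bases in Ins1 and 333 in Ins2. The 327 aligned bases held 25 substitutions, an identity of 92.4%, and 6 bases of Ins2 had no partner. The longest identical run was 56 bases, and none of the 228 stretches of 100 bases in the Ins1 coding sequence occurred in an annotated Ins2 transcript. RSEM splits a read that fits more than 1 transcript between them. The expected counts of both insulin genes were fractional in 6 of the 12 libraries of the first table and in all 5 of the second, with sums of Ins1 and Ins2 that were whole within 0.01 counts in each of those libraries. The split between Ins1 and Ins2 is therefore less certain than their sum, and each comparison is also given for the sum.

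The proximal promoters of Ins1, Iapp and Ucn3 are shown as those of 3 peptides that β cells release together, for genes the comparisons below return to. The 250 bases before the RefSeq start site (GRCm38.p6) are printed 5′ to 3′ on the strand of the gene, with 4 motifs in capitals on either strand: TAAT (the homeodomain core), CATCTG (the core of the insulin E box), TGACGTCA (the cAMP response element) and TATAAA (the TATA box). They span chr19:52264047-52264296 on the plus strand, chr6:142298175-142298424 on the plus strand and chr13:3945350-3945599 on the minus strand.
Ins1: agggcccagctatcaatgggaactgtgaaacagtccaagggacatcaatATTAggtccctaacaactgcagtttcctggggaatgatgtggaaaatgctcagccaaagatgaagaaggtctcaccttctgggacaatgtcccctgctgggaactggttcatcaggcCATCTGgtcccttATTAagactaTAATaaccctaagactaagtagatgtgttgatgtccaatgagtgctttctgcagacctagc
Iapp: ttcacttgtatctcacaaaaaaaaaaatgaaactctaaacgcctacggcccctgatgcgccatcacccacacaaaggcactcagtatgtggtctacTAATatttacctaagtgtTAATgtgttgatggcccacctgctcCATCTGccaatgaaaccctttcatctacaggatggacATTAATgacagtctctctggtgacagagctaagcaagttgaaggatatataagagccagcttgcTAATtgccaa
Ucn3: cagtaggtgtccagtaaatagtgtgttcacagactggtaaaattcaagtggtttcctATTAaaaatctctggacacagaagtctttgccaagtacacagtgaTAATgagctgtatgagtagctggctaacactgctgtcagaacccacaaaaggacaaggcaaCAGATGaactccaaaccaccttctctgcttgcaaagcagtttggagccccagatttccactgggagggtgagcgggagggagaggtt
In windows of 300 bases, which add 50 bases after the start, TAAT occurred 3 times for Ins1, 5 times for Iapp and 5 times for Ucn3, with the capitals of adjoining Iapp matches running together. CATCTG occurred 2 times for Ins1 and 1 time each for Iapp and Ucn3. Of all 32851 promoter windows of this length, 58.0% held TAAT, 17.2% held CATCTG, 1.79% held TGACGTCA and 13.6% held TATAAA. The Gcg window held TAAT 2 times, CATCTG 2 times and TATAAA 2 times, the Sst window held TAAT 1 time and TGACGTCA 1 time, and the Ppy window held TATAAA 1 time. Windows were found for 9 of the 10 genes, Ins2 being the one without. No motif was found in the windows of Pyy and Npy, and in the Ghrl windows only CATCTG.

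Libraries of the first table held 24268157 to 42679645 counts and those of the second 28618835 to 31887537. The hormone genes took 5.94% to 8.70% of the counts in the first table and 12.2% to 15.9% in the second, and 2 large rows without a gene symbol took up to 53.3% and 6.49%. Values below are CPM, the counts scaled to 1000000, of the TMM-scaled library, scaled within each table, so levels are not compared across the tables. Pax4 itself had 0 counts in every library, which allows at most 0.124 CPM of the unscaled total in any of them (3 counts, counting error only), so neither genotype could be checked on it. Defining markers of α, β and δ cells were above 0 in every group, and so were all 25 acinar markers, which mark the enzyme-secreting exocrine cells around the islets. The threshold for a call was an edgeR quasi-likelihood adjusted p below 0.05 with a log2 fold change beyond 0.5 in either direction. All 10 hormone genes passed the filter on low counts in both tables, with 19137 and 20167 genes tested.

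Per kilobase of exon, the hormones fell into tiers that were similar in all 6 groups. In Pax4 WT islets on SCD, Ins1 had 15513 ± 2685 CPM per kb (SD, n = 3), Iapp 14328 and Ins2 13346, and the ranges of these neighbours overlapped. Gcg followed at 4025 CPM per kb and Ppy at 2537, with no overlap between neighbours. Sst had 830 CPM per kb and Pyy 658, Ucn3 had 64.3, Npy 6.07 and Ghrl 0.841. Ins1, Ins2 and Iapp were the first 3 in every group. The length of Ins2 is uncertain, since its annotated interval reaches far past its coding exons (1312 exon bases), and by CPM alone Ins2 stood at 17510, above Ins1 at 16475 and Iapp at 13956. The order within them differed, since Ins2 led with 50136 CPM per kb in Control and 47520 in Pax4-BiKO islets, above the range of Iapp in both. Gcg and Ppy overlapped in Pax4 HH islets on either diet and in both groups of the second table. Ghrl and Npy were scarce, with 6 to 220 and 22 to 244 expected counts per library.

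**Figure D1:**
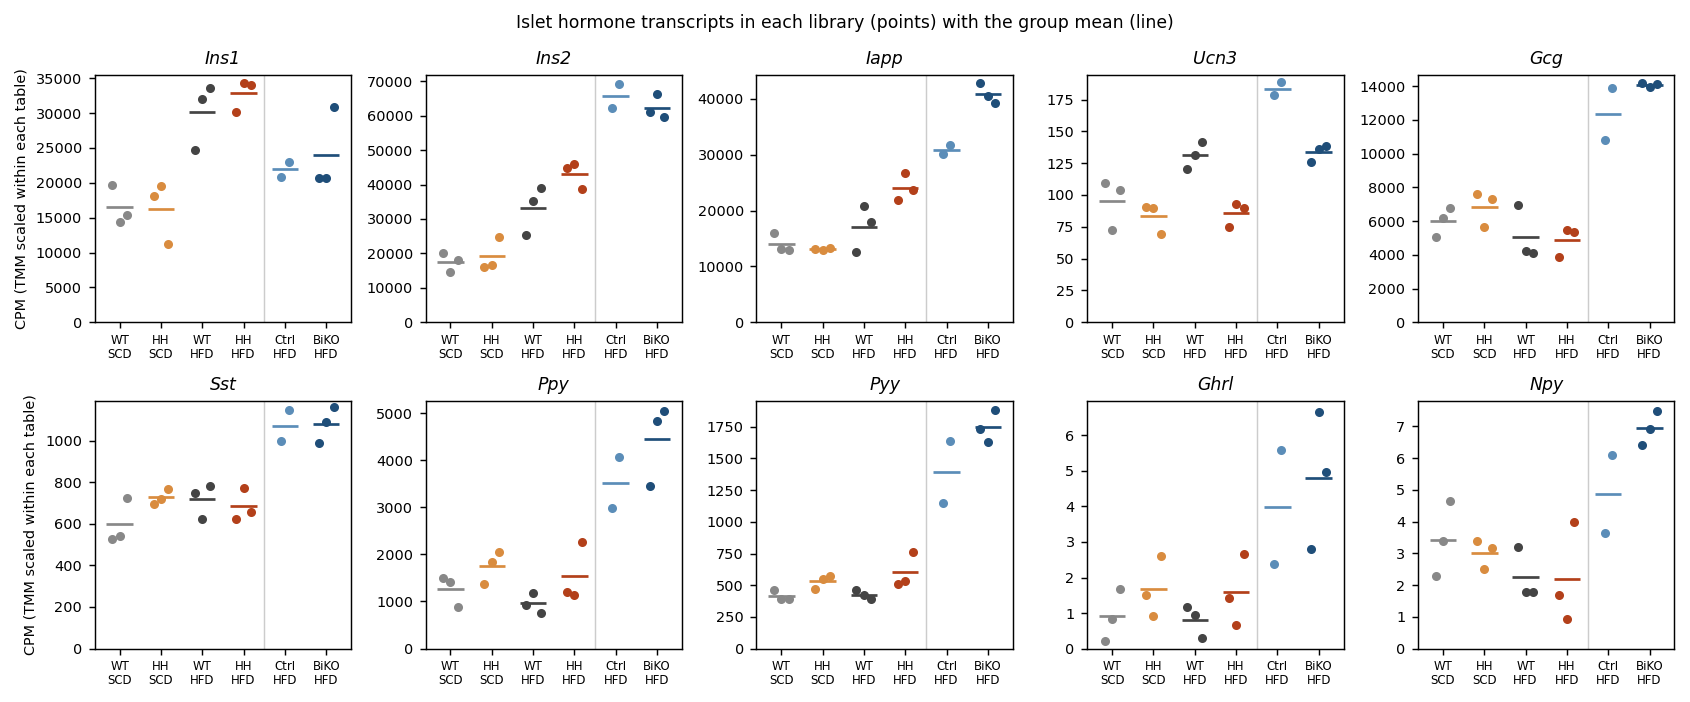
CPM of each islet hormone transcript (y axis, linear from 0) by group (x axis: Pax4 WT and Pax4 HH on SCD or HFD, then Control and Pax4-BiKO on HFD, right of the grey line, scaled separately), with 1 point for each library and a line at the group mean. Ins1 and Ins2 stood higher on HFD than on SCD in both genotypes, and Ucn3 stood lower in Pax4 HH than in Pax4 WT on HFD and lower in Pax4-BiKO than in Control.

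The first comparison asked whether HFD altered hormone transcripts in each genotype. In Pax4 HH islets, Ins1, Ins2 and Iapp rose about as much as each other, while Ucn3, the other β-cell peptide, did not pass the test. In Pax4 WT islets, Ins1 and Ins2 also stood higher in every HFD library than in any SCD library, but the calls depended on the test. Gcg, Sst, Ppy, Pyy, Ghrl and Npy were called in neither genotype.

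Ins1 measured 18097, 19552 and 11236 CPM in Pax4 HH islets on SCD and 30151, 34379 and 34083 CPM on HFD. The groups did not overlap, and 1 of the SCD libraries stood well below the others. The log2 fold change was 1.01 (SE 0.24, edgeR adjusted p = 0.0111), a 2.02-fold rise with a 95% interval of 1.42 to 2.87. Ins2, the more widely conserved insulin gene, measured 16065, 16743 and 24859 CPM on SCD and 44827, 46040 and 38625 CPM on HFD, again without overlap. It rose by 1.17 on the log2 scale (SE 0.24, edgeR adjusted p = 0.00560), which is 2.25-fold. The SCD library that was lowest for Ins1 was highest for Ins2. Counted as 1 gene, Ins1 and Ins2 had 35517 ± 1177 CPM on SCD and 76035 ± 3963 CPM on HFD (SD, n = 3), a log2 fold change of 1.10 (SE 0.21, edgeR adjusted p = 0.00371). Iapp, whose product forms islet amyloid in humans but not in mice, measured 13178, 12936 and 13306 CPM on SCD and 21932, 26740 and 23616 CPM on HFD. Its SCD libraries were nearly equal and all lay below the HFD libraries, and it rose by 0.87 on the log2 scale (SE 0.21, edgeR adjusted p = 0.0114). These 3 were the hormone genes called, all higher, where 9.75% of all tested genes were called higher and 15.7% in either direction. Without any 1 library, the log2 fold changes were 0.80 to 1.19 for Ins1, 1.09 to 1.40 for Ins2 and 0.80 to 0.94 for Iapp, and all 3 calls held. They also held with DESeq2 (8.84% of all genes called), RLE size factors (15.6%), no filter on low counts (9.58%), at least 10 counts in every library (21.2%), a model of the 2 groups alone (21.0%), a replicate block (12.3%) and the 2 largest rows left out (15.6%).

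Acinar transcripts moved with this comparison. Of the 25 acinar markers, 23 were called higher on HFD in Pax4 HH islets, with a median log2 fold change of 1.84, and their summed level was 13594 to 20459 CPM on SCD and 38916 to 106589 CPM on HFD. With the mean of these markers as a covariate, the log2 fold changes were 1.37 for Ins1 (edgeR adjusted p = 0.103), 0.94 for Ins2 (0.215) and 0.98 for Iapp (0.157), and no hormone gene was called, where 0.538% of all genes were. Their standard errors were 0.36, 0.35 and 0.31. The summed level of 6 duct markers was 78.0 to 101 CPM on SCD and 125 to 133 CPM on HFD, and that of 10 α-cell markers 1182 to 1446 CPM and 2320 to 2972 CPM, both without overlap. The mean log2 CPM of the acinar markers was 7.51 to 8.05 on SCD and 8.91 to 10.3 on HFD. Group and acinar content are thus confounded and cannot be told apart with the covariate. The part of exocrine tissue in the rise was not tested, nor was that of the duct and α-cell markers.

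In Pax4 WT islets, Ins1 measured 19720, 14373 and 15330 CPM on SCD and 24651, 32082 and 33547 CPM on HFD. Ins2 measured 20019, 14522 and 17988 CPM on SCD and 25303, 35143 and 39122 CPM on HFD. Neither gene overlapped between diets. The TMM factors were 1.05 to 1.27 in Pax4 WT libraries on SCD and 0.890 to 1.11 on HFD. The log2 fold changes were 0.87 for Ins1 (SE 0.24, edgeR adjusted p = 0.115) and 0.92 for Ins2 (SE 0.24, edgeR adjusted p = 0.101), so neither was called, where 0.371% of all tested genes were. With Ucn3, 3 of the 10 genes had an unadjusted p below 0.05, as did 2915 of all 19137. Counted as 1 gene, Ins1 and Ins2 had a log2 fold change of 0.90 (SE 0.21, edgeR adjusted p = 0.0814). DESeq2 called both, with adjusted p of 0.00222 and 0.000816, where it called 1.37% of genes. Iapp measured 15905, 13106 and 12856 CPM on SCD and 12514, 20764 and 17885 CPM on HFD, and these overlapped, with a log2 fold change of 0.29 (95% interval −0.15 to 0.73). Of the acinar markers, 0 of 25 were called in Pax4 WT islets, with a median log2 fold change of 0.13 and a summed level of 13450 to 26228 CPM on SCD and 17009 to 26157 CPM on HFD. With their mean as a covariate, the log2 fold changes were 0.91 for Ins1 (SE 0.21, edgeR adjusted p = 0.0960) and 0.90 for Ins2 (SE 0.22, edgeR adjusted p = 0.108). Of 7 tested immune markers 2 were called lower on HFD, Lyz2 (log2 fold change −2.23) and Ptprc (−1.90). The part of the immune markers in the hormone values was not tested.

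Whether the diet response differed between genotypes was tested by the interaction, which called none of the 10 genes, where 0.131% of all genes were called. At an unadjusted p below 0.05 there were also 0 hormone genes, where 2147 of all 19137 genes were, and DESeq2 called 0 (0.781% of all genes). The interaction on the log2 scale was 0.14 for Ins1 (95% interval −0.57 to 0.86), 0.24 for Ins2 (−0.47 to 0.96), 0.59 for Iapp (−0.04 to 1.21) and −0.42 for Ucn3 (−0.93 to 0.08). It was 0.20 for the summed insulin genes (SE 0.29).

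Ucn3, a marker of mature mouse β cells whose product acts on δ cells, took another course. It measured 109, 72.1 and 104 CPM in Pax4 WT islets on SCD and 121, 132 and 142 CPM on HFD, without overlap (log2 fold change 0.47, SE 0.17, edgeR adjusted p = 0.208). In Pax4 HH islets it measured 90.3, 89.8 and 69.4 CPM on SCD and 74.6, 92.6 and 90.0 CPM on HFD, a log2 fold change of 0.04 (95% interval −0.31 to 0.40). The HH values overlapped between the diets.

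Gcg measured 7617, 5622 and 7315 CPM in Pax4 HH islets on SCD and 3857, 5448 and 5330 CPM on HFD, which did not overlap (log2 fold change −0.49, SE 0.23, edgeR adjusted p = 0.167). In Pax4 WT islets it measured 5070, 6183 and 6786 CPM on SCD and 6934, 4196 and 4117 CPM on HFD, which overlapped. Sst differed little, by 0.26 in Pax4 WT (95% interval −0.08 to 0.60) and −0.09 in Pax4 HH (−0.43 to 0.25) on the log2 scale. Ppy, Pyy, Ghrl and Npy had log2 fold changes between −0.61 and 0.18 in the 2 genotypes. In all, 3 of 10 genes did not overlap between the diets in Pax4 WT (17.9% of all tested genes) and 4 of 10 in Pax4 HH (41.8%).

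**Figure D2:**
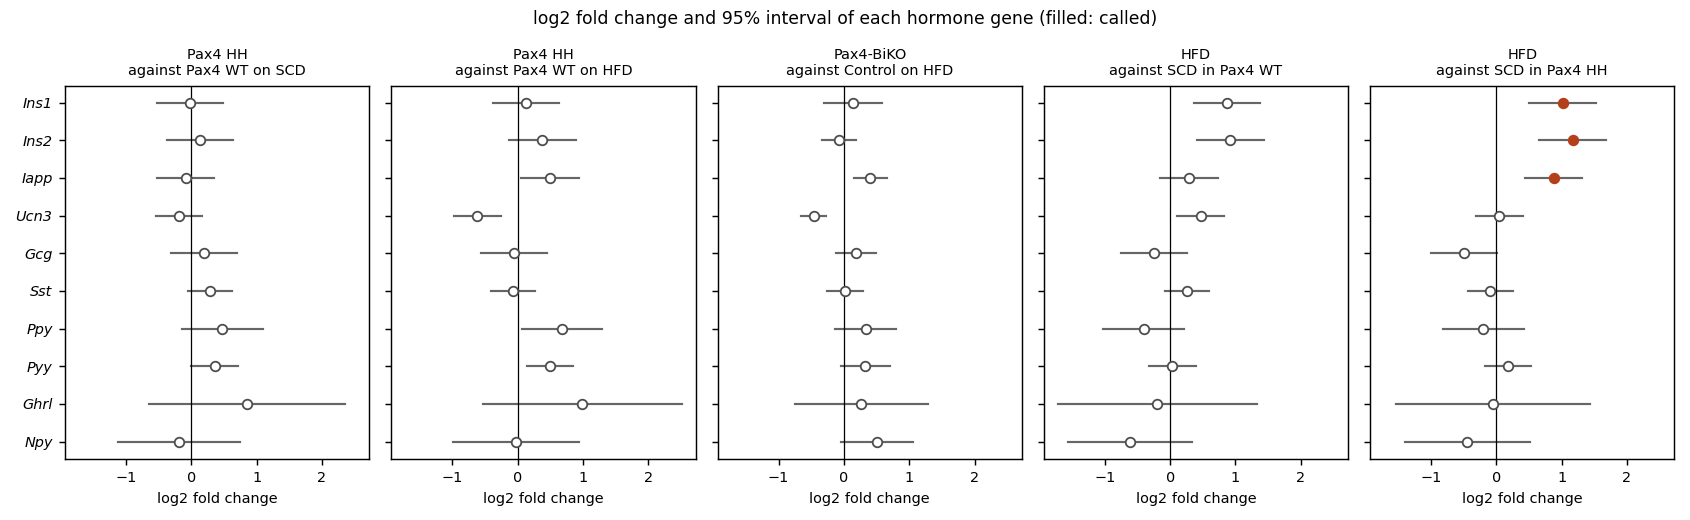
log2 fold change (x axis) of each hormone gene (y axis) with its 95% interval in the 5 comparisons of 2 groups, where filled points were called. The only filled points are Ins1, Ins2 and Iapp for HFD against SCD in Pax4 HH, at 1.01, 1.17 and 0.87.

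Ratios of hormone counts within a library do not depend on library size or scaling. They were compared by two-sided exact permutation tests, which cannot go below p = 0.1 in these groups, so none could pass the threshold. There were 20 such tests, and the smallest adjusted p was 0.40. The ratio of Gcg to the summed insulin counts was 0.223, 0.155 and 0.203 in Pax4 HH islets on SCD and 0.0514, 0.0677 and 0.0733 on HFD. The groups did not overlap, with a log2 difference of −1.59 (exact permutation p = 0.1). In Pax4 WT islets the ratio of Gcg to insulin was 0.128, 0.214 and 0.204 on SCD and 0.139, 0.0624 and 0.0567 on HFD, which overlapped in 1 library (log2 difference −1.17, exact permutation p = 0.2). The log2 ratio of Sst to insulin differed between the diets by −1.19 in Pax4 HH, without overlap, and by −0.62 in Pax4 WT, with overlap. The log2 ratio of Ppy to insulin differed by −1.35 in Pax4 HH and −1.28 in Pax4 WT, without overlap in either. In Pax4-BiKO against Control, the log2 ratio of Gcg to insulin differed by 0.22, also without overlap (exact permutation p = 0.2, the lowest possible there).

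The ratio of Ins1 to Ins2 set single libraries apart rather than groups. It was 0.985, 0.990 and 0.852 in Pax4 WT on SCD, 1.13, 1.17 and 0.452 in Pax4 HH on SCD, 0.974, 0.913 and 0.857 in Pax4 WT on HFD and 0.673, 0.747 and 0.882 in Pax4 HH on HFD. Pax4 HH replicate 3 on SCD stood apart from its group. In the second table it was 0.335 and 0.332 in Control islets and 0.337, 0.312 and 0.518 in Pax4-BiKO islets, where replicate 3 stood apart. In no comparison did the ratio of Ins1 to Ins2 differ without overlap, with exact permutation p from 0.2 to 1.0.

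**Figure D3:**
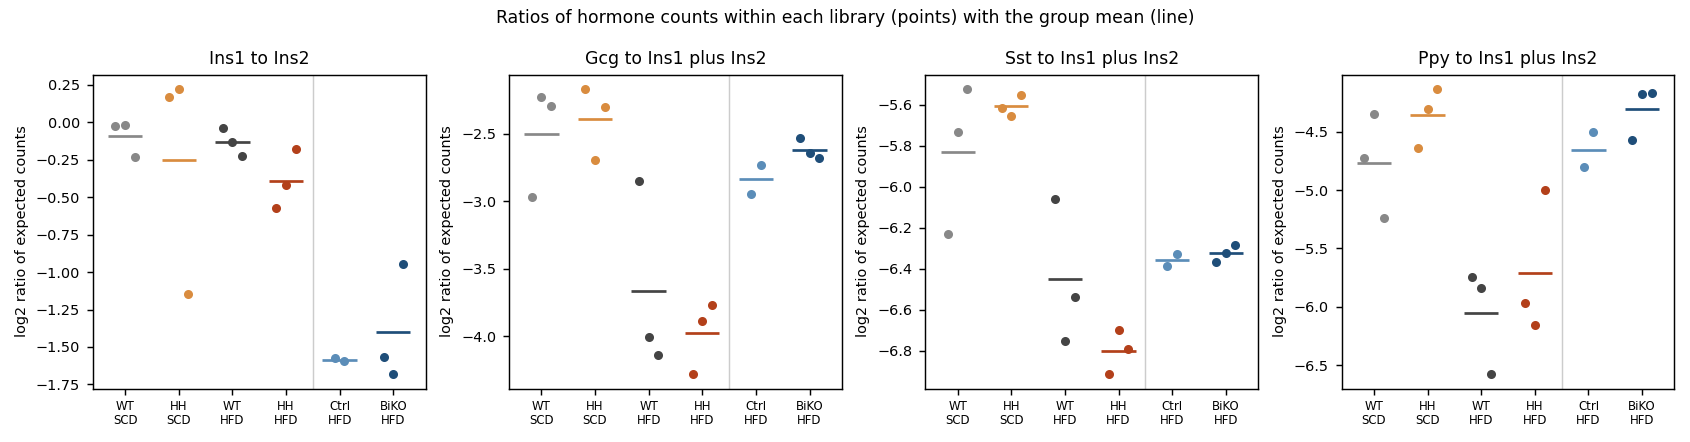
log2 ratio of expected counts within a library (y axis) by group (x axis) for Ins1 to Ins2 and for Gcg, Sst and Ppy to summed insulin, with 1 point for each library and a line at the group mean. The group means of the ratios to insulin lie lower on HFD than on SCD in the first table, with overlap of Gcg and Sst in Pax4 WT, and 1 Pax4 HH library on SCD lies at −1.15 for Ins1 to Ins2.

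Pax4 HH and Pax4 WT islets on SCD were then compared, to ask whether the substitution alone altered hormone transcripts. None of the 10 genes was called, where 0% of all tested genes were. None of the 10 had an unadjusted p below 0.05, where 629 of all 19137 genes did, and DESeq2 called none of the 10 (0.0577% of all genes). The log2 fold changes were −0.02 for Ins1 (95% interval −0.52 to 0.49), 0.13 for Ins2 (−0.37 to 0.64), −0.09 for Iapp (−0.53 to 0.35), 0.19 for Gcg (−0.32 to 0.69), 0.28 for Sst (−0.06 to 0.62) and 0.47 for Ppy (−0.15 to 1.09). The scarcer Ucn3, Npy and Ghrl had log2 fold changes of −0.19, −0.19 and 0.85, with intervals that held 0. The summed insulin genes differed by 0.06 (SE 0.21). Pyy, peptide YY of PP and α cells and of gut endocrine cells, was the 1 gene without overlap, where 7.83% of all tested genes did not overlap. It measured 460, 391 and 395 CPM in Pax4 WT and 473, 547 and 573 CPM in Pax4 HH (log2 fold change 0.35, SE 0.16, edgeR adjusted p = 1.0). The summed level of 12 intestinal and enteroendocrine markers was 40.7 to 53.8 CPM in Pax4 WT and 43.3 to 167 CPM in Pax4 HH on SCD, and Cdx1 and Gip were at 0 in both groups. The highest sum was that of Pax4 HH replicate 1, with Fabp2 at 41.3 CPM, Krt20 at 23.3 CPM and Lgals4 at 14.3 CPM, where Pax4 WT libraries reached 0, 0.024 and 1.45 CPM. That library was the lowest of its group for Pyy, and without it the log2 fold change of Pyy was 0.44. Immune markers summed to 57.9 to 109 CPM in Pax4 WT and 28.2 to 32.9 CPM in Pax4 HH, with 0 of 7 tested called by edgeR. At an unadjusted p below 0.05, 6 of the 7 were lower in Pax4 HH, and 629 of all 19137 genes reached that p in either direction. The part of these immune markers in the hormone values was not tested.

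On HFD, Ucn3 stood lower in every Pax4 HH library than in any Pax4 WT library, and Iapp and Pyy stood higher, but none of the 10 genes was called by edgeR, with 4 at an unadjusted p below 0.05 (Iapp, Ppy, Pyy and Ucn3), as were 3041 of all 19137 genes. Ucn3, Iapp and Pyy did not overlap between the genotypes, where 22.9% of all tested genes did not overlap and 2.28% were called. Ucn3 measured 121, 132 and 142 CPM in Pax4 WT and 74.6, 92.6 and 90.0 CPM in Pax4 HH. The log2 fold change of Ucn3 was −0.62 (SE 0.17, edgeR adjusted p = 0.0718), a ratio of 0.65 with a 95% interval of 0.51 to 0.84. It was called by DESeq2 (adjusted p = 0.0124, 2.31% of all genes called), without the filter on low counts (adjusted p = 0.00771, 3.21%), with at least 10 counts in every library (adjusted p = 0.0423, 4.61%) and in a model of the 2 groups alone (adjusted p = 0.0440, 2.00%). Without any 1 library its log2 fold change was −0.67 to −0.52. The difference in Ucn3 between the genotypes was not shown to depend on diet, as the interaction above gives.

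Iapp measured 12514, 20764 and 17885 CPM in Pax4 WT and 21932, 26740 and 23616 CPM in Pax4 HH on HFD (log2 fold change 0.50, SE 0.20, edgeR adjusted p = 0.240), and without Pax4 WT replicate 1, the lowest, the log2 fold change was 0.32. Pyy measured 461, 426 and 390 CPM in Pax4 WT and 512, 530 and 762 CPM in Pax4 HH (log2 fold change 0.50, SE 0.16, edgeR adjusted p = 0.135). Ppy, pancreatic polypeptide and the neighbour of Pyy on chromosome 11 at a distance of 5356 bases, had a log2 fold change of 0.68 (SE 0.29, edgeR adjusted p = 0.259), which was 0.28 without Pax4 HH replicate 3 and was called only without the filter on low counts (adjusted p = 0.0297). That library was the highest for both Ppy and Pyy, and without it the log2 fold change of Pyy was 0.29. Ins1 (0.13, 95% interval −0.38 to 0.63), Ins2 (0.38, −0.13 to 0.89), Gcg (−0.06, −0.56 to 0.44) and Sst (−0.07, −0.41 to 0.27) had log2 fold changes that were not called, and those of the scarce Ghrl and Npy were 0.99 (−0.53 to 2.51) and −0.02 (−0.98 to 0.94). The summed insulin genes differed by 0.26 (SE 0.21, edgeR adjusted p = 0.583).

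Exocrine transcripts differed in this comparison too. Of the 25 acinar markers 8 were called higher in Pax4 HH on HFD, and their summed level was 17009 to 26157 CPM in Pax4 WT and 38916 to 106589 CPM in Pax4 HH. With their mean as a covariate, the log2 fold change of Ucn3 was −0.44 (SE 0.26, edgeR adjusted p = 0.716) and that of Iapp 0.59 (SE 0.28, edgeR adjusted p = 0.655), where 0% of all genes were called. The duct markers summed to 78.4 to 97.7 CPM in Pax4 WT and 125 to 133 CPM in Pax4 HH on HFD, and the α-cell markers to 1281 to 1420 CPM and 2320 to 2972 CPM, both without overlap. Of the single estimates, 5 of 6 for duct and 6 of 10 for α cells were above 0. The mean log2 CPM of the acinar markers was 7.64 to 8.34 in Pax4 WT and 8.91 to 10.3 in Pax4 HH on HFD. Genotype and acinar content are thus confounded here too and cannot be told apart with the covariate. The part of exocrine tissue in the Ucn3 and Iapp values was not tested, nor was that of the duct and α-cell markers.

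**Figure D4:**
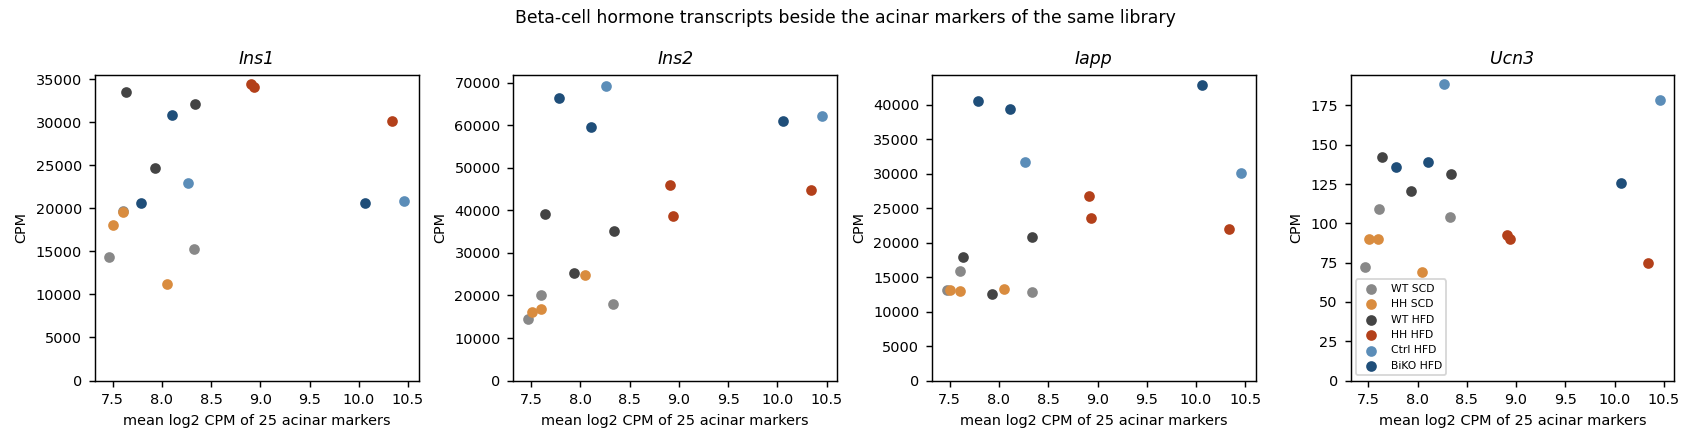
CPM of Ins1, Ins2, Iapp and Ucn3 (y axes, linear from 0) beside the mean log2 CPM of 25 acinar markers in the same library (x axis), coloured by group. The 3 Pax4 HH libraries on HFD have acinar means of 8.91 to 10.3, against 7.47 to 8.34 in the other libraries of the first table.

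Pax4-BiKO and Control islets on HFD addressed the same question for loss of Pax4 in adult islet cells, with only 2 Control libraries. None of the 10 genes was called by edgeR, where 0.0893% of all tested genes were, nor by DESeq2, where 0.646% were. Those with an unadjusted p below 0.05 were 2 of 10, Ucn3 and Iapp, and 2591 of all 20167. Ucn3 measured 178 and 189 CPM in Control and 126, 136 and 139 CPM in Pax4-BiKO, without overlap. Its log2 fold change was −0.46 (SE 0.08, edgeR adjusted p = 0.140), a ratio of 0.73 with a 95% interval of 0.64 to 0.83. DESeq2 gave Ucn3 an adjusted p of 0.000196 with a fold change under the threshold. Iapp measured 30054 and 31669 CPM in Control and 42832, 40493 and 39288 CPM in Pax4-BiKO, without overlap, a log2 fold change of 0.41 (SE 0.11, edgeR adjusted p = 0.251, DESeq2 adjusted p = 0.000266). Its ratio was 1.32, with a 95% interval of 1.12 to 1.57. Of the acinar markers, 0 of 25 were called, with a median log2 fold change of −0.69 and a summed level of 17814 to 87442 CPM, against 25049 to 112510 CPM in Control. With their mean as a covariate, the log2 fold change of Ucn3 was −0.49 (SE 0.08, edgeR adjusted p = 0.194) and that of Iapp 0.41 (SE 0.07, edgeR adjusted p = 0.194). The 10 α-cell markers summed to 2628 to 3265 CPM in Control and 3866 to 4620 CPM in Pax4-BiKO, and the 6 duct markers to 203 to 207 CPM and 255 to 317 CPM, with 0 of either list called by edgeR. Of the single estimates, 5 of 10 for α cells and 2 of 6 for duct were above 0. The part of the α-cell and duct markers in the hormone values was not tested.

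Gcg measured 10814 and 13895 CPM in Control and 14168, 13945 and 14142 CPM in Pax4-BiKO (log2 fold change 0.19, 95% interval −0.12 to 0.50), and the gap between the groups was small against the spread of the Control libraries. Npy, a neuropeptide found in nerves and in some immature endocrine cells, measured 3.64 and 6.10 CPM in Control and 6.41, 6.92 and 7.48 CPM in Pax4-BiKO (log2 fold change 0.51, 95% interval −0.05 to 1.06). Markers of nerve and glia summed to 44.4 to 59.8 CPM and 47.0 to 53.7 CPM. With Ucn3 and Iapp these made 4 of 10 genes without overlap, where 32.6% of all tested genes did not overlap. Ins1 had a log2 fold change of 0.13 (95% interval −0.31 to 0.58), which was −0.09 without Pax4-BiKO replicate 3, and Ins2 one of −0.08 (−0.34 to 0.18). The summed insulin genes differed by −0.02 (SE 0.11). Sst differed by 0.01 (−0.26 to 0.28), Ppy by 0.33 (−0.13 to 0.80), Pyy by 0.33 (−0.05 to 0.70) and Ghrl by 0.27 (−0.75 to 1.28) on the log2 scale.

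Of 11 tested enzymes and granule proteins that process the hormones, 8 were called higher and 0 lower on HFD in Pax4 HH islets, where 9.75% of all tested genes were called higher. The list had a median log2 fold change of 0.74 against −0.06 over all tested genes. The 6 of largest change among those called were Scg2 (1.17, SE 0.22, edgeR adjusted p = 0.00389), Chgb (1.08), Pam (1.01), Scg3 (0.99), Pcsk1n (0.90) and Cpe (0.69). Secretogranins and chromogranin B pack hormones into dense-core granules, Pam amidates the ends of peptides such as amylin, and Cpe trims residues after the prohormone convertases have cut. In Pax4 WT islets 1 of 11 was called, Pcsk1n, which encodes an inhibitor of the convertase Pcsk1 (log2 fold change 0.86, SE 0.16, edgeR adjusted p = 0.0465), where 0.371% of all tested genes were called, and it was not called with the acinar covariate (0.86, SE 0.17, edgeR adjusted p = 0.0649). Pam was the 1 of 11 called between the genotypes on HFD, higher in Pax4 HH (0.74, SE 0.14, edgeR adjusted p = 0.0182), where 2.28% of all tested genes were called. In Pax4-BiKO against Control 0 of 11 were called by edgeR, where 0.0893% of all tested genes were. At an unadjusted p below 0.05 there were 5 higher and 1 lower, and 2591 of all 20167 genes in either direction.

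Of 16 tested receptors of the islet hormones, 2 were called lower in Pax4 HH than in Pax4 WT on HFD, where 2.28% of all tested genes were called. Crhr1, a receptor of corticotropin-releasing hormone and its relatives, measured 2.18 to 2.99 CPM in Pax4 WT and 0.250 to 0.797 CPM in Pax4 HH (log2 fold change −2.37, SE 0.42, edgeR adjusted p = 0.0126). Glp1r, the GLP-1 receptor of β cells, had a log2 fold change of −0.69 (SE 0.15, edgeR adjusted p = 0.0357). On HFD against SCD in Pax4 HH, Crhr1 (−2.15), Gipr (−0.84) and Glp1r (−0.56) were called lower, and Ramp1 (1.01) and Ramp2 (0.72), which pair with the calcitonin receptor family that binds amylin, were called higher, together 5 of 16 where 15.7% of all tested genes were called. Of 15 transcription factors of hormone genes, Insm1 was called higher (0.63) and Creb1 lower (−0.72) in that comparison, a share below that of all tested genes, and none was called in the others. The acinar markers given above moved with each of these Pax4 HH comparisons on HFD, and with their mean as a covariate none of the listed processing genes, receptors or transcription factors was called. The estimates of all those called without it kept their direction with the covariate, and their standard errors grew, as for Scg2 (1.15, SE 0.35) and Crhr1 (−1.78, SE 0.70) on HFD against SCD.

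Of the markers of the endocrine cells, 4 of 10 for β cells were called lower in Pax4 HH than in Pax4 WT on HFD, where 2.28% of all tested genes were called: Trpm5 (−1.65), Slc2a2 (−1.28), Glp1r (−0.69) and Slc30a8 (−0.61), and 5 of 10 were called lower on HFD than on SCD in Pax4 HH, with Sytl4 (−0.75) as the fifth, where 15.7% of all tested genes were called. These HFD libraries were those in which Ins1, Ins2 and Iapp stood higher. In Pax4-BiKO against Control 1 of 10, Trpm5, was called lower (−1.14), where 0.0893% of all tested genes were called, and it was also called with the acinar covariate (−1.16, SE 0.10, edgeR adjusted p = 0.0215). Gc (1.52), Ttr (1.16) and Slc38a5 (1.03) were called higher among 10 α-cell markers in Pax4 HH on HFD, where the log2 fold change of Gcg was −0.06, and Gc (2.53), Ttr (1.19) and Tm4sf4 (0.63) were called higher and Slc7a2 (−1.19) lower on HFD against SCD in Pax4 HH. None of the 5 δ-cell markers was called by edgeR in any comparison, nor was Sst. The acinar markers moved with both Pax4 HH comparisons as given above, and with their mean as a covariate 0 of the β- and α-cell markers were called in either. The 9 β-cell and 7 α-cell estimates called without it kept their direction and had larger standard errors, as for Slc2a2 (−1.08, SE 0.30) and Slc38a5 (0.37, SE 0.29) between the genotypes on HFD. Of 6 duct markers 1, Krt7, was called higher on HFD against SCD in Pax4 HH (0.74), a share near the 15.7% of all tested genes called there. Krt7 was not called with the acinar covariate (0.68, SE 0.21, edgeR adjusted p = 0.151).

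Genes with the most similar course to the 3 called hormones were found over the 12 libraries, by the mean absolute difference of log2 CPM centred on each gene's mean, among 13142 genes. For Iapp they were Selenok (0.047), H2-T22 (0.063) and Sec11a (0.065), against a mean absolute deviation of 0.35 for Iapp itself. For Ins1 they were Tysnd1 (0.10), Zdhhc24 (0.11) and Cox5b (0.11), and for Ins2 Etv5 (0.10), Rpl41 (0.14) and Syt5 (0.14). The other insulin gene ranked 611 for Ins1 and 176 for Ins2, with a mean absolute difference of 0.25 between them. Ppy and Pyy differed by 0.29 on this measure.

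Some genes overlap others in the annotation. Iapp shares its interval on chromosome 6 (142298423 to 142303961) with Slco1a5 on the opposite strand, and Ghrl (113716119 to 113719880) with 2 unnamed gene models on the opposite strand. The libraries were stranded, but the strand setting of the counting is not given in the sources used here, so reads of these partners may enter the counts.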

How the data were processed

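Islet total RNA was sequenced from TruSeq Stranded Total RNA libraries in 6 groups, taken from the sample labels. Per the labels and methods, the authors aligned reads to mm10 with STAR 2.7.1, quantified transcripts with RSEM 1.3.3 and brought them to gene level by tximport. What they deposited were 2 tables of expected counts, with no scaling for depth. The annotation release is not given in the sources used here. Symbols and exon lengths were taken from GENCODE M21 and RefSeq on GRCm38.

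Expected counts were rounded to whole numbers and tested with edgeR 4.0.16 in R 4.3.3 (TMM, filterByExpr with a minimum count of 10, quasi-likelihood F-test, 1 coefficient per group, 1 model per table, Benjamini-Hochberg adjustment over all tested genes). The call threshold is given above. A prior count of 2 entered log2 CPM. The groups of the first table share libraries between comparisons. P-values measure the spread between the replicates of a group, whose sources are given above. DESeq2 1.42.0 and the other alternatives are listed at the end. On simulated counts, edgeR and DESeq2 were checked for Pax4 HH against Pax4 WT on HFD and for Pax4-BiKO against Control only. The simulation used the same dispersion for both tables, while the fitted common dispersions were 0.0818 and 0.0335. The other comparisons and the permutation tests were not checked in this way. Ratios of expected counts were tested by exact permutation, with Benjamini-Hochberg adjustment over 20 tests. No set test was run.

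The hormone genes and all gene lists were chosen with earlier results of these data known. Listed genes are named where called, at most the 6 of largest change per list and comparison, and acinar markers are counted only. Counting Ins1 and Ins2 as 1 gene was chosen after seeing the data. Totals were 24268157 counts or more per library, and counting error is largest for Ghrl and Npy among the hormone genes and for Crhr1 among the named receptors. Intervals are those of the edgeR fit and include the spread between replicates, while the floor for Pax4 covers counting error only.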

Additional observations from a re-analysis of the deposited data

How the results depend on the processing

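Each comparison was recomputed with RLE size factors, other filters on low counts, DESeq2, the replicate number as a block, without the 2 largest rows, with the acinar covariate, with the 2 groups alone and without each library. The 3 hormone calls for HFD against SCD in Pax4 HH became 0 with the acinar covariate and stayed 3 under every other setting. For Pax4 HH against Pax4 WT on HFD, 0 hormone calls became 2 without a filter, 1 with at least 10 counts in every sample, 1 with DESeq2 and 1 with the 2 groups alone. For HFD against SCD in Pax4 WT, 0 became 2 with DESeq2. Leaving out any 1 library kept the number at 0 in all comparisons but HFD against SCD in Pax4 HH. The lists held 21 receptors, 12 processing genes and 15 transcription factors. Calls among them under DESeq2 were 7 for Pax4 HH against Pax4 WT on HFD (2.31% of all genes called) and 4 for the interaction (0.781%). They were 2 for HFD against SCD in Pax4 WT (1.37%) and 5 for Pax4-BiKO against Control (0.646%). With edgeR these 4 counts were 3, 0, 1 and 0. With the acinar covariate the listed calls were 0 in each of these and in HFD against SCD in Pax4 HH, where edgeR without it called 15. The cause of these changes was not tested.

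Over all genes, in the order Pax4 HH against Pax4 WT on HFD, interaction, HFD against SCD in Pax4 WT, HFD against SCD in Pax4 HH and Pax4-BiKO against Control, edgeR called 437, 25, 71, 2996 and 18. The counts were 1279, 708, 924, 3819 and 697 without a filter, 920, 311, 545, 3521 and 250 with DESeq2, and 0, 0, 46, 103 and 12 with the acinar covariate. At least 10 counts in every sample gave 80 for the interaction and 115 for the diet in Pax4 WT. The 2 groups alone gave 1 for the diet in Pax4 WT. Without 1 library they ranged over 93 to 498, 0 to 101, 5 to 125, 1706 to 2248 and 2 to 28. For Pax4 HH against Pax4 WT on SCD the count of 0 became 261 without a filter, 23 with DESeq2 and 1 with the 2 groups alone.

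Correlations between same-numbered libraries of different groups ran from −0.30 to 0.19 in the first table, with 5 of 18 over 0.1, and from 0.04 to 0.07 in the second. Those between differently numbered libraries ran from −0.31 to 0.40 and from −0.07 to 0.04. With groups of 2 or 3 libraries these values cannot settle whether the replicate numbers pair the samples. With the replicate block the hormone calls were 3 for HFD against SCD in Pax4 HH and 0 elsewhere, and calls over all genes were 147, 0, 22, 2347 and 88 in the order above. Of 826 estimates of uncalled hormone genes under an alternative, 49 changed sign and 33 moved by at least 1 standard error. Groups of 2 or 3 libraries limit the precision of every hormone estimate, and depth limits Ghrl, Npy and Crhr1.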
